A study of Homo sapiens with 12 samples.

Results

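RNA of the untreated libraries D1 and D2 was compared with RNA of the untreated libraries A1 and A2. The rule took 4 of the 12 libraries of the series, and all 60099 listed genes were looked up in them. All libraries came from established head and neck squamous cell carcinoma lines, Cal27 and HN30, and each line was sequenced without IFNα and 24 h after 20 or 200 ng/ml IFNα, a type I interferon. Group A (A1, A2) and group D (D1, D2) were labelled as controls and received no IFNα (0 ng/ml). Groups B and E received the low dose and groups C and F the high dose. Letters A to C held every dose once, as did letters D to F, so that each set of letters was read as 1 line. The labels do not say which set is which line, and the sets are therefore named by their letters. With 1 line per set, a difference between lines cannot be told apart from a difference in culture, passage or handling between the sets. The treated groups served to see whether a difference between D and A was found again between E and B and between F and C.

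Squamous carcinomas of the head and neck arise from stratified epithelium, in which basal cells hold the stem cell programme and anchor the sheet to laminin, and cells moving upward switch keratins and build a cornified envelope. Lines from such tumours keep parts of this programme and lose others, and they differ in how far they have moved towards a mesenchymal state. They also differ in their set of mutations and chromosome gains and losses, in the HOX genes that record where in the body the tissue arose, and in the cytokines they release without any stimulus.

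The 4 control libraries held between 12670755 and 16056734 estimated counts, and 3 counts, used as the detection floor, corresponded to between 0.194 and 0.242 CPM, which are counts scaled to library size. This floor, and the exact intervals given for ratios of counts, cover counting error only. Squared deviations between replicate counts were 15.6 times those of counting noise in A and 12.8 times in D (chi-square per degree of freedom). On log2 CPM of the 13033 tested genes whose mean count reached 50, Pearson's r was 0.970 between A1 and A2 and 0.971 between D1 and D2, against 0.682 to 0.695 between a library of A and a library of D. Defining markers of leukocytes, endothelium, melanocytes and fibroblasts were mostly at or near 0, with the exceptions given with those lists. The labels do not say whether the 2 replicates of a group were separate cultures, so p-values measure the spread between these samples only.

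Of 19944 genes with enough counts to be tested, 5310 differed 2-fold or more between D and A at an adjusted p of 0.05 or lower, which is 26.6% of the genes tested. Such genes are described as called. A total of 3124 genes were higher in D (15.7%) and 2186 were lower (11%), and the median log2 fold change of all tested genes was 0.01. The difference was at least 4-fold in 2954 genes. Among all tested genes, the TPM values of the 2 groups did not overlap in 72.2%, the share against which a gap between 2 and 2 libraries is to be read. The plot of abundance in the 2 groups shows genes that were at 0 in one set and abundant in the other.

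**Figure D1:**
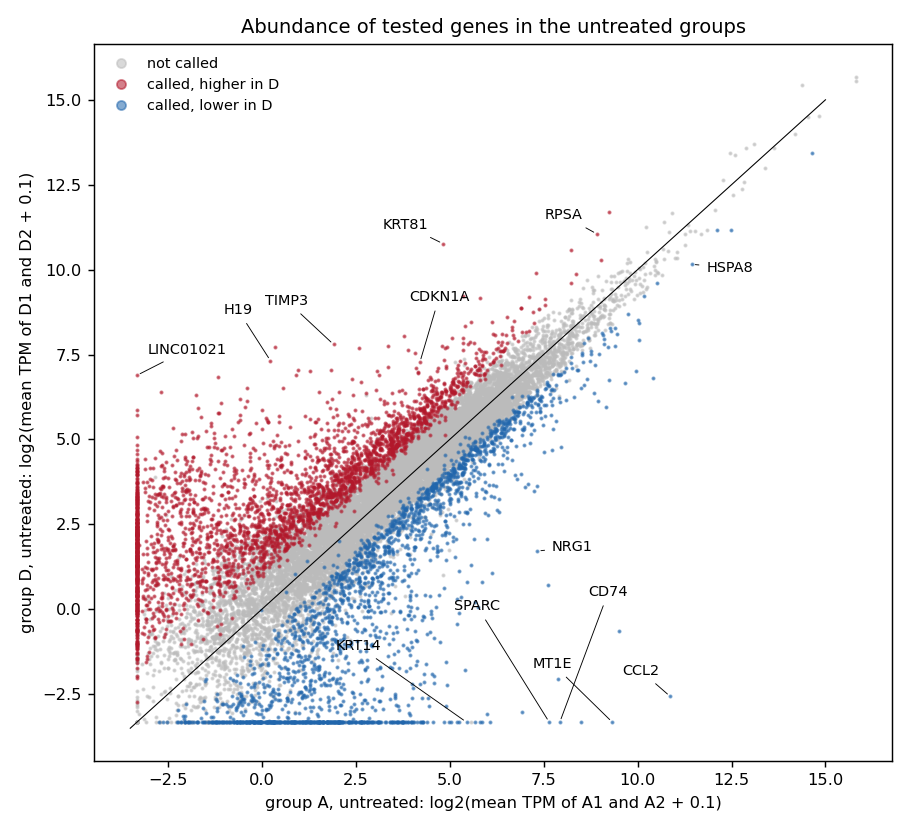
Mean TPM (transcript abundance scaled for length and library size) of each tested gene in group A (horizontal axis) and group D (vertical axis), both as log2 of the mean of 2 untreated libraries plus 0.1, with called genes in red (3124 higher in D) or blue (2186 lower in D) and the line of equal abundance drawn. Genes at 0 in one group form the straight edges at the left and at the bottom, where SPARC, CD74, MT1E and KRT14 lie.

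Most of these differences were found again in the treated libraries. Of the 3124 genes called higher in D, 2222 (71.1%) were also called higher both in E against B and in F against C. Of the 2186 genes called lower, 1406 (64.3%) were called lower in both. The background for these counts is 26.2% of tested genes called in E against B, with 15.8% higher and 10.4% lower, and 28.4% in F against C, with 16.8% higher and 11.6% lower. Only 12 genes were called in the opposite direction at either dose. The difference between the sets changed at either dose 2-fold or more at an adjusted p of 0.05 or lower in 211 genes (1.06%).

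**Figure D2:**
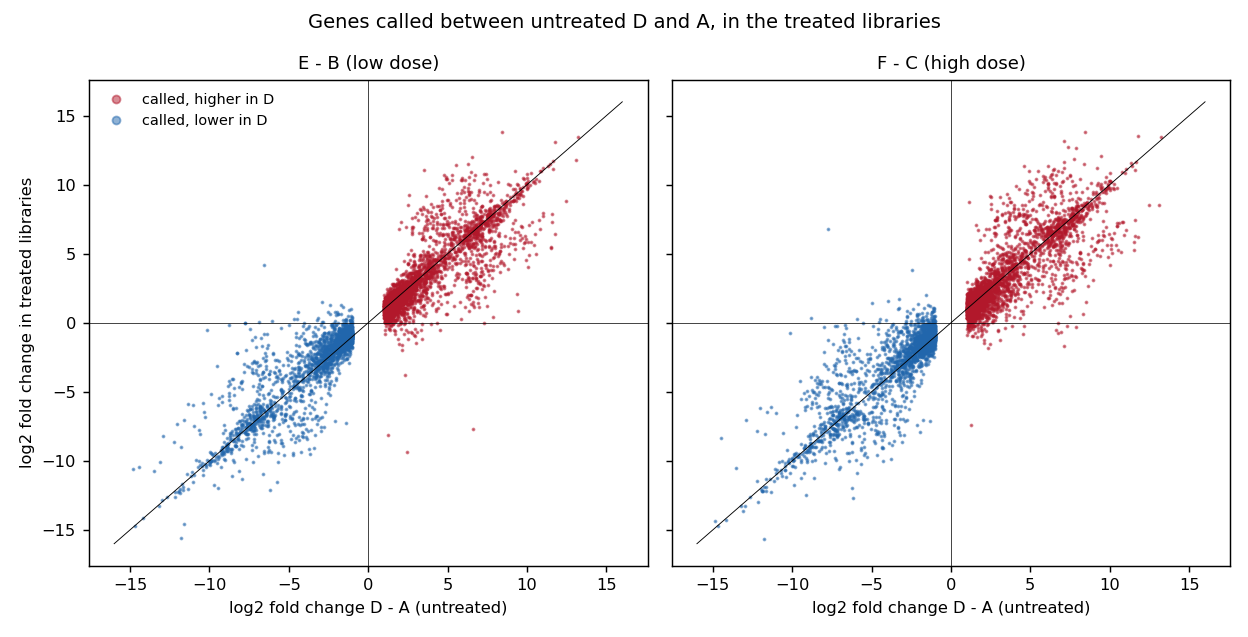
Log2 fold change of D against A (horizontal axis) and of E against B (left) or F against C (right, vertical axes) for the genes called between D and A, red where higher in D and blue where lower, with the line of equal change. Of the points, 2222 red and 1406 blue genes were called in the same direction in all 3 comparisons, and 12 were called in the opposite direction in a treated comparison.

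The genes are described below by their roles, in 37 lists. For each list the number of genes listed, the number with enough counts to be tested and the number called are given, to be read against the background of 15.7% higher and 11% lower. A gene that is silent in one set could pass the low count filter only through the other set and then had to differ, so these counts describe the lists and are no test of them. Values are TPM, which is scaled for transcript length, whereas log2 fold changes of D over A, with standard errors, come from the counts. The 2 can differ for a gene whose transcripts differ in length between the sets. Every single gene given with its values and described as higher or lower was also called, in the same direction, in both treated comparisons unless the text says otherwise. Counts refer to the untreated comparison, and the counts in parentheses after those of a list are its genes called higher and lower in D and also in both treated comparisons.

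**Figure D3:**
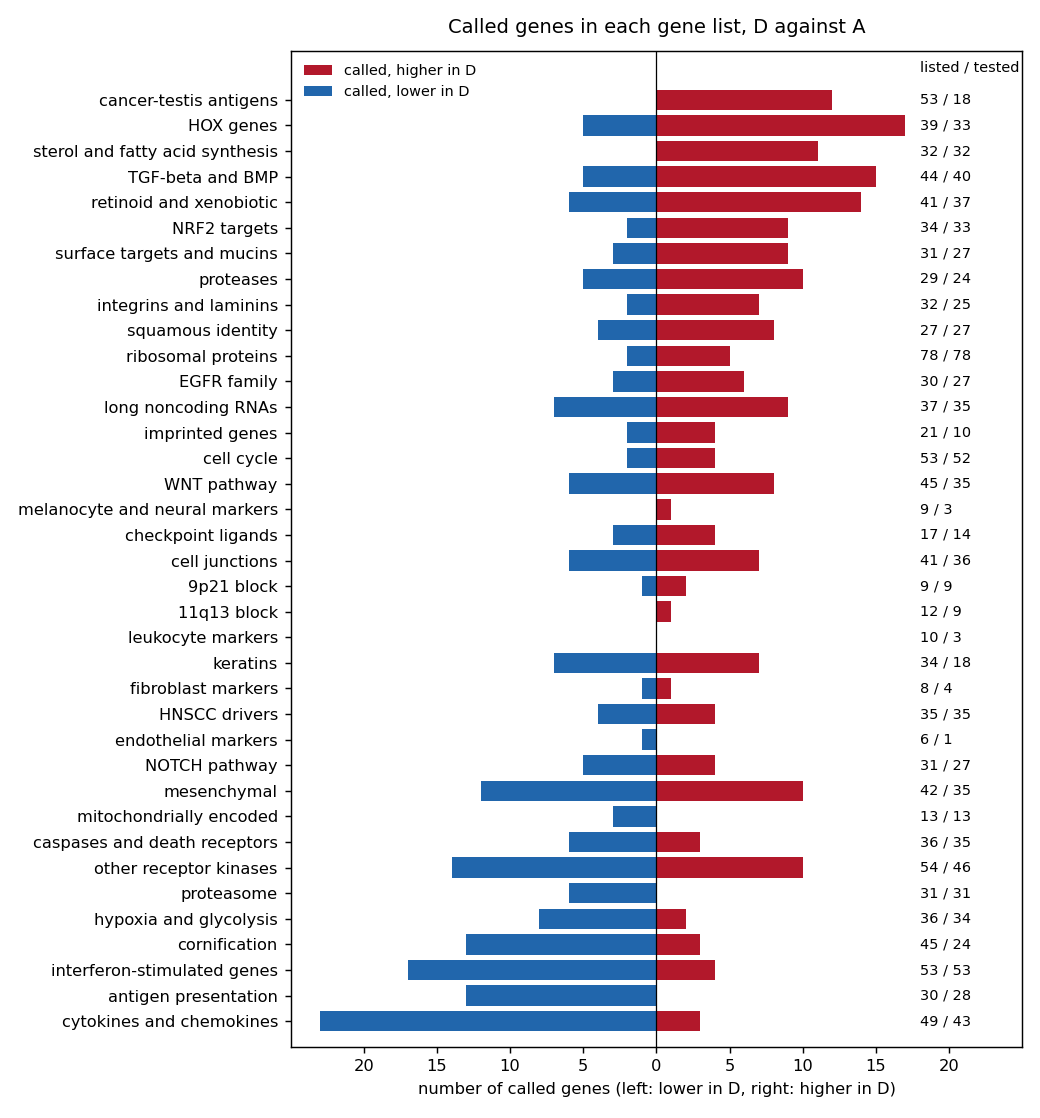
Number of genes called higher in D (red, to the right) and lower in D (blue, to the left) in each of 37 gene lists, with the number of genes listed and tested at the right. Cytokines and chemokines had 23 genes lower and 3 higher, and antigen presentation had 13 lower and 0 higher, whereas the lists of sterol synthesis and HOX genes had 11 and 17 genes higher.

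Factors that define squamous epithelium were called in both directions. All 27 genes of the squamous identity list were tested, 8 were called higher and 4 lower (4 and 4 in all 3 comparisons), and the median log2 fold change was 0.52. TP63, the master factor of basal squamous cells, was at 237 and 256 TPM in A and 132 and 109 TPM in D. The log2 fold change was -1.15 ± 0.11 (SE, at an adjusted p of 2.45e-05), and no library of D reached a library of A. EHF, an ETS factor of stratified epithelia, was at 293 and 468 TPM in A and 107 and 89.1 TPM in D and was also lower in D, with a log2 fold change of -2.08 ± 0.24. ELF3, an ETS factor linked to differentiating epithelium, went the other way at 20.8 and 23.4 TPM in A and 116 and 112 TPM in D. Its log2 fold change was 2.07 ± 0.10 (SE, at an adjusted p of 4.26e-07). SOX2, a stem cell factor that often acts with TP63, was low in A at 1.33 and 1.01 TPM and at 0 in both libraries of D, which puts it at least 9.605-fold lower. SFN, a 14-3-3 protein of keratinocytes, was lower in D at 663 and 695 TPM in A and 303 and 318 TPM in D. The desmosomal plaque protein PKP1 was higher in D at 11.9 and 12.4 TPM in A and 38.6 and 35.5 TPM in D. The adhesion molecule EPCAM was not called at 217 and 206 TPM in A and 205 and 172 TPM in D, and its groups came close to each other.

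The keratins, which form the intermediate filaments of epithelial cells, divided by type. Of 34 keratin genes listed, 18 were tested, 7 were called higher and 7 lower (7 and 4 in all 3 comparisons). Of the 9 basal and stress keratins 8 were tested and 7 were called lower in D, 4 of them also in both treated comparisons. KRT5, the basal keratin of stratified epithelium, was at 1018 and 1088 TPM in A and 248 and 242 TPM in D, a log2 fold change of -2.15 ± 0.10 (SE, at an adjusted p of 4.26e-07). Its partner KRT14 was at 42.7 and 44.4 TPM in A and at 0 in both libraries of D, at least 231-fold lower. KRT16, a keratin of wounded and fast-growing epithelium, was also lower at 15.1 and 17.7 TPM in A and 4.17 and 2.33 TPM in D. An exception among basal keratins was KRT15, which marks basal cells at rest and was at 32.98 and 33.4 TPM in A and 273 and 238 TPM in D. KRT6A was lower in D at 178 and 168 TPM in A and 51.1 and 47.5 TPM in D, although it was called in F against C and not in E against B.

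The most abundant keratin of the list in D was KRT81, a keratin of the hair shaft. It lies on chromosome 12 (GRCh38, 52285913 to 52291534) and was at 26.7 and 29.7 TPM in A and 1717 and 1759.95 TPM in D. The log2 fold change was 5.81 ± 0.18 (SE, at an adjusted p of 6.06e-08), and KRT81 was among the 5 most abundant genes called higher. Its neighbours KRT86 (1.43 and 1.17 TPM in A, 18.9 and 18.2 TPM in D) and KRT83 (0 and 0.221 TPM in A, 2.28 and 3.001 TPM in D) were higher as well, but the 3 hair keratins resemble each other closely, so part of their counts may belong to KRT81. Of 6 simple epithelial keratins listed, 4 were tested and 2 were called higher, both in all 3 comparisons. Their summed TPM was 862 to 1056 in A and 1650 to 1730 in D. The abundant simple epithelial pair KRT8 and KRT18 was not called between D and A. KRT18 was at 439 and 439.7 TPM in A and 767 and 662 TPM in D, and KRT8 at 400.4 and 587 TPM in A and 892 and 901 TPM in D. The 13 suprabasal keratins, of which 3 were tested and 1 was called higher, summed to 131 to 140 TPM in A and 302 to 320 TPM in D. The summed TPM of the 6 hair keratins was 28.1 to 31.1 in A and 1738 to 1781 in D, whereas that of the 9 basal and stress keratins was 1552 to 1662 in A and 629 to 704 in D.

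**Figure D4:**
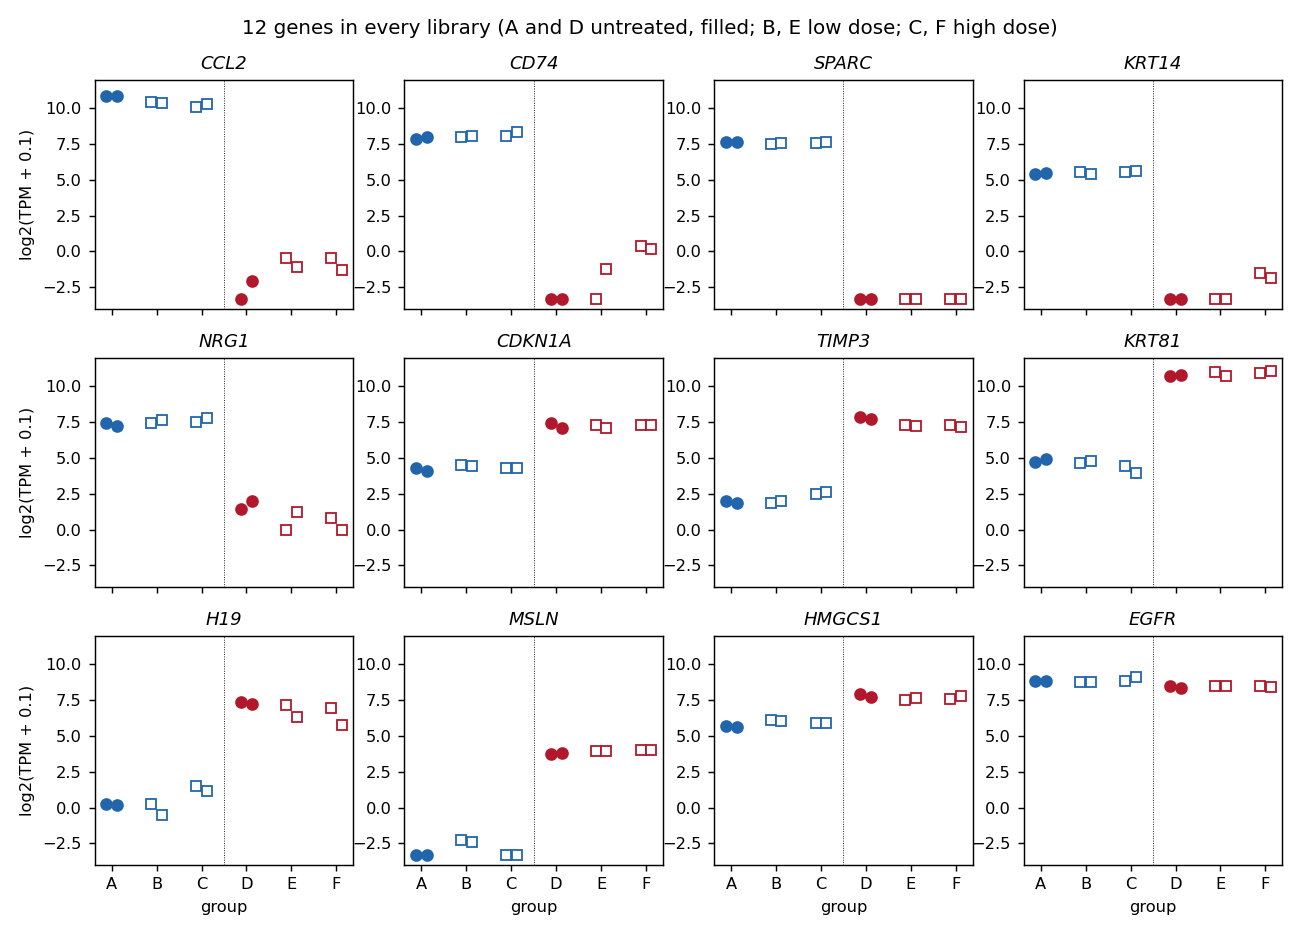
Log2(TPM + 0.1) of 12 genes in each of the 12 libraries, by group on the horizontal axis, with untreated groups A and D as filled circles and treated groups as open squares (blue for letters A to C, red for D to F). In 11 of the 12 panels the 2 sets stay apart by more than the spread within a set at every dose, and EGFR, which was not called, is shown beside them.

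Genes of late keratinocyte differentiation were more often lower than higher in D, mostly through enzymes, inhibitors, calcium-binding and surface genes. Of 45 cornification genes, which encode the envelope of the dead outer cell layer, its proteases and calcium-binding proteins, 24 were tested, 3 were called higher and 13 lower (0 and 12 in all 3 comparisons). Without library A2 or D1, 1 was higher. Of those tested, 10 passed the filter through 1 group only. Of 8 envelope proteins tested, 2 were called higher and 2 lower (0 and 2 in all 3 comparisons). The summed TPM of the envelope proteins was 124 to 130 in A and 148 to 150 in D. Of 11 enzymes and inhibitors tested, 1 was called higher and 6 lower. Of 5 calcium-binding and surface genes tested, 0 were called higher and 5 lower. SPRR1B, a small proline-rich envelope protein, was at 25.2 and 22.8 TPM in A and 0 and 0.92 TPM in D. CALML3, an epithelial calmodulin-like protein, was at 29.3 and 30.03 TPM in A and 0 and 0.0795 TPM in D, and its counts were 800.4-fold (95% exact interval 221 to 6615) lower in D. KLK5, a protease that loosens the cornified layer, was at 16.3 and 22.4 TPM in A and 0 in D, at least 97.1-fold lower. RHCG, an ammonium transporter of squamous epithelium, was at 2.65 and 2.83 TPM in A and 0 in D. Periplakin (PPL), which ties keratins to the envelope, was not called at 57.6 and 52.1 TPM in A and 112 and 109 TPM in D. It passed the threshold of 2-fold without library A1, with a log2 fold change of 1.05. Involucrin (IVL) was at 0 in A and at 0.918 and 1.46 TPM in D, and this call was not found in the treated libraries.

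Cell junction genes went both ways. Of 41 genes listed, 36 were tested, 7 were called higher and 6 lower (6 and 4 in all 3 comparisons). CLDN7, a tight junction claudin, was at 12.5 and 13.8 TPM in A and 90.6 and 85.3 TPM in D and was higher in D, with a log2 fold change of 2.83 ± 0.12 (SE, at an adjusted p of 2.12e-07). The desmosomal cadherin DSC2 was at 9.17 and 8.97 TPM in A and 32.6 and 35.5 TPM in D. NECTIN1, an adherens junction protein, was at 28.2 and 27.2 TPM in A and 80.9 and 88.7 TPM in D. Both were higher in D in all 3 comparisons. Among the genes lower in D were gap junction proteins, with GJA1 at 18.4 and 15.6 TPM in A and 0.38 and 0.5 TPM in D and GJB2 at 62.1 and 59.6 TPM in A and 12.01 and 10.2 TPM in D. T-cadherin, CDH13, was at 43.97 and 44.4 TPM in A and 6.17 and 8.15 TPM in D, and CDH11, a cadherin of mesenchymal cells, was at 2.74 and 1.49 TPM in A and 0 in D. CTNNA1, the α-catenin that links cadherins to actin, was not called at 317 and 265 TPM in A and 269 and 295 TPM in D.

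The mesenchymal genes were called in both directions. Of 42 genes, 35 were tested, 10 were called higher and 12 lower (9 and 11 in all 3 comparisons), and the median log2 fold change was -0.41. SPARC, a matrix protein that binds collagen, was at 198 and 203 TPM in A and had no count in either library of D, at least 1286-fold lower. PDPN, podoplanin, a membrane protein of the invading tumour edge, was at 38.1 and 21.8 TPM in A and 0.292 and 0.185 TPM in D, and LOX, which cross-links collagen, was at 6.42 and 5.83 TPM in A and 0.136 and 0.381 TPM in D. Other genes of the same list were high in D and low in A. SEMA3C, a secreted semaphorin, was at 11.3 and 18.1 TPM in A and 218 and 181 TPM in D, with a log2 fold change of 3.78 ± 0.07 (SE, at an adjusted p of 6.95e-09). The smooth muscle genes ACTA2 (6.08 and 3.58 TPM in A, 56.3 and 50.1 TPM in D) and TAGLN (1.01 and 0.41 TPM in A, 24.2 and 19.9 TPM in D) were higher too. INHBA, which encodes the activin A subunit, was at 45.9 and 43.2 TPM in A and 258 and 188 TPM in D. The abundant members CD44 and CAV1 were not called, CD44 at 1246 and 1058 TPM in A and 839.7 and 826 TPM in D and CAV1 at 904 and 875 TPM in A and 637 and 744 TPM in D. The summed TPM of the list was 5470 to 5546 in A and 3825 to 3914 in D.

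Adhesion to the matrix and its breakdown differed in named genes. Of 32 integrins and laminins, 25 were tested, 7 were called higher and 2 lower (7 and 1 in all 3 comparisons), or 1 lower without library A2. LAMB1, a laminin β chain, was at 105 and 98.6 TPM in A and 323 and 269.8 TPM in D. ITGB5, which pairs with αv in a vitronectin receptor, was at 17.4 and 18.2 TPM in A and 124 and 131 TPM in D. ITGB2, the integrin β chain of white blood cells, was at 0.826 and 1.41 TPM in A and 31.6 and 30.6 TPM in D, while 0 of the leukocyte markers were called higher. ITGA4 was at 8.27 and 7.73 TPM in A and 0 in D. ITGA3, a laminin receptor chain, was not called at 369.9 and 344 TPM in A and 297 and 334 TPM in D.

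Of 29 proteases and inhibitors, 24 were tested, 10 were called higher and 5 lower (8 and 4 in all 3 comparisons). TIMP3, a matrix-bound inhibitor of metalloproteinases, was at 3.87 and 3.45 TPM in A and 234 and 210.4 TPM in D, a log2 fold change of 5.79 ± 0.10 (SE, at an adjusted p of 5.61e-09). MMP2, a gelatinase, was at 3.77 and 3.04 TPM in A and 58.9 and 63.3 TPM in D and was also higher in D. MMP13, a collagenase, and MMP7, matrilysin, went the other way, MMP13 at 7.73 and 10.1 TPM in A and 1.203 and 0.963 TPM in D and MMP7 at 4.78 and 3.32 TPM in A and 0 in D. PLAU, urokinase, which activates plasminogen at the cell edge, was at 568 and 643 TPM in A and 113 and 102 TPM in D. It was lower in D, with a log2 fold change of -2.57 ± 0.09 (SE, at an adjusted p of 8.51e-08). The membrane metalloproteinase MMP14 was not called, at 84.1 and 89.5 TPM in A and 107 and 86.2 TPM in D.

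EGFR, the receptor that squamous carcinomas often overproduce, was abundant in both sets. It was at 454 and 447 TPM in A and 352 and 334 TPM in D, below the 2-fold threshold with a log2 fold change of -0.67 ± 0.07 (SE, at an adjusted p of 5.06e-05). Its ligands differed more. Of 30 genes of the EGFR family, its ligands and feedback genes, 27 were tested, 6 were called higher and 3 lower (6 and 2 in all 3 comparisons). EREG, epiregulin, a ligand of EGFR, was at 16.6 and 17.02 TPM in A and 192 and 182 TPM in D, a log2 fold change of 3.26 ± 0.12 (SE, at an adjusted p of 1.15e-07). NRG4, a ligand of ERBB4, was at 1.499 and 1.17 TPM in A and 22.8 and 21.7 TPM in D. NRG1, neuregulin 1, the ligand of ERBB3, was at 170.3 and 152 TPM in A and 2.55 and 3.82 TPM in D. It was lower in D, with a log2 fold change of -6.11 ± 0.22 (SE, at an adjusted p of 1.15e-07). For epiregulin both libraries of D were above both of A, and for neuregulin 1 both were below. LRIG1, which removes EGFR from the membrane, was lower in D at 5.46 and 4.56 TPM in A and 1.42 and 1.53 TPM in D.

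Of 54 genes for other receptor kinases, their ligands and carriers, 46 were tested, 10 were called higher and 14 lower (10 and 9 in all 3 comparisons). PDGFA, a ligand of the PDGF receptors, was at 10.9 and 10.8 TPM in A and 83.1 and 81.5 TPM in D. EPHA4, an ephrin receptor, was at 0.0799 and 0.224 TPM in A and 10.5 and 12.5 TPM in D. FGFR1 was near the floor in A, at 0 and 0.12 TPM, and at 1.51 and 3.38 TPM in D. NTRK2, the receptor of the neurotrophin BDNF, was at 5.27 and 5.24 TPM in A and 0.0759 and 0.0858 TPM in D, and IGFBP4, which binds insulin-like growth factors, was at 6.63 and 5.18 TPM in A and 0.105 and 0.382 TPM in D. Both were lower in D. The scatter factor receptor MET was not called at 259 and 212 TPM in A and 147 and 157 TPM in D.

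All 35 genes listed as drivers of head and neck cancer were tested, 4 were called higher and 4 lower (4 and 4 in all 3 comparisons). These 8 of 35 genes are to be read beside the 26.6% of all tested genes. TGFBR2, the type II receptor of TGF-β, was at 17.02 and 25.5 TPM in A and 104 and 109 TPM in D. SMAD4, the common mediator of that pathway, was at 12.6 and 10.1 TPM in A and 33.6 and 28.8 TPM in D, and FBXW7, which marks growth regulators for breakdown, was at 11.4 and 12.5 TPM in A and 33.3 and 25.1 TPM in D. All 3 were higher in D. FAT1, a protocadherin that is often mutated in these tumours, was at 165 and 172 TPM in A and 53.98 and 57.5 TPM in D, a log2 fold change of -2.14 ± 0.08 (SE, at an adjusted p of 1.15e-07). TERT, the catalytic part of telomerase, was at 10.002 and 10.8 TPM in A and 0.101 and 0.677 TPM in D. RAC1, a GTPase of the actin skeleton, was not called, at 538 and 532 TPM in A and 699 and 643 TPM in D. RNA levels carry no information on mutations, which were not examined.

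Neighbouring genes at 11q13 and 9p21, which are often gained and lost in this cancer, respectively, were mostly not called. Of the 12 genes listed at 11q13, 9 were tested and 1 was called higher, in all 3 comparisons. CCND1, cyclin D1, was at 246 and 228 TPM in A and 146 and 159 TPM in D, and CTTN, an actin-binding protein, at 276 and 291 TPM in A and 319 and 268 TPM in D. Neither was called. Of the 9 genes listed at 9p21, all tested, 2 were called higher and 1 lower (0 and 1 in all 3 comparisons), or 1 higher without library A1. CDKN2A, which encodes 2 tumour suppressors, was at 62.6 and 58.3 TPM in A and 37.3 and 76.5 TPM in D, and its groups overlapped. CCND1, CTTN and CDKN2A were read in both sets. Without library A2 or D2 the 11q13 count changed to 2 or 0 genes higher.

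Few cell cycle genes were called. Of 53 genes, 52 were tested, 4 were called higher and 2 lower (1 and 1 in all 3 comparisons), or 4 lower without library D2. The largest difference was in CCND2, cyclin D2, which was at 68.8 and 58.3 TPM in A and at 0.0352 and 0 TPM in D. Its counts were 3631-fold (95% exact interval 1005 to 29990.0) lower in D. CDKN1A, a gene of this list that encodes p21 and stops the cell cycle, was at 19.9 and 16.9 TPM in A and 171 and 139 TPM in D, a log2 fold change of 3.01 ± 0.12 (SE, at an adjusted p of 2.04e-07). It was higher in both libraries of D. PCNA, the clamp of replicating DNA, was at 382 and 317 TPM in A and 487 and 491 TPM in D, and TPX2, a spindle protein, at 229 and 220.2 TPM in A and 299.9 and 259 TPM in D. Neither was called.

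The class II antigen presentation genes were read in A, without any added interferon, and were at or near 0 in D. Class II molecules carry peptides to helper T cells and are normally made by immune cells, while epithelial cells make them after exposure to interferon γ. Of the 11 class II genes listed, 10 were tested and 10 were lower in D, and 8 of them passed the filter through A alone. CD74, the invariant chain that guards the peptide groove, lies on chromosome 5 (150401637 to 150412929) and was at 235 and 253 TPM in A. It had no count in D1 or D2, which puts it at least 1118-fold lower. HLA-DRA, the α chain of HLA-DR, was at 52.7 and 58.2 TPM in A and 0 in D. HLA-DRB1 and HLA-DRB5 were at 6.45 and 6.94 and at 4.39 and 4.28 TPM in A and at 0 in D. Reads of HLA genes map less well where a line's alleles differ from the reference, so low values of single HLA genes are uncertain, but CD74 is not polymorphic in this way. CIITA, the coactivator that switches on the class II genes, was at 14.6 and 17.1 TPM in A and 0.284 and 0.437 TPM in D, a gene singled out for its role after its values were seen. All 10 tested genes were also called lower in both treated comparisons.

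Class II promoters share a CCAAT element, the Y box. The promoters of 4 class II genes that were at 0 in D are shown here with the core letters of this element marked. The marks show every match of these letters, in either direction and at any distance from the start. A marked match need not be the Y box. The sequences are the 150 bases before the start of transcription in RefSeq on GRCh38.p14, 5′ to 3′ on the strand of the gene, with ATTGG or its reverse complement CCAAT in capitals. They are reference sequences, not those of the lines.
CD74 (chr5:150412911-150413060, minus strand): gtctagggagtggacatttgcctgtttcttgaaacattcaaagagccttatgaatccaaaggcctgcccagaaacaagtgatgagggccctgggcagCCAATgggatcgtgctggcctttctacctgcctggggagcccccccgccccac
HLA-DRB1 (chr6:32589849-32589998, minus strand): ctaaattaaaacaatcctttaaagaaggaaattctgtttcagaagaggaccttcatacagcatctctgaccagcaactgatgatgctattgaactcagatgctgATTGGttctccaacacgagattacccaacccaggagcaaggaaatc
HLA-DPB1 (chr6:33075840-33075989, plus strand): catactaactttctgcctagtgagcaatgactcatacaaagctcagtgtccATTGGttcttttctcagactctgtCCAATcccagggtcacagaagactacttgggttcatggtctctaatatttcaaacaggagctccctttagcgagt
HLA-DMB (chr6:32941029-32941178, minus strand): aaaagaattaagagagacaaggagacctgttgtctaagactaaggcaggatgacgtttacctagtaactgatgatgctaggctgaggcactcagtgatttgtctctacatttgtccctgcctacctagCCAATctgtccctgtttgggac
The letters ATTGG, on either strand within 250 bases before the start, were found in 8 of 9 class II promoters and in 33.0% of 27305 RefSeq promoters of the same length. The longer form CTGATTGG, which contains ATTGG, was found in 4 of 9 and in 3.98% of all. A match of letters is a description and shows no binding, and a promoter for HLA-DRA was not used here.

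Class I genes, which all nucleated cells use to display peptides to killer T cells, were read in both sets. Of 19 genes of this group, 18 were tested, 0 were called higher and 3 lower (0 and 1 in all 3 comparisons). HLA-B, a class I heavy chain, was at 346 and 385 TPM in A and 354 and 332 TPM in D, and its groups overlapped. CALR, a chaperone of class I assembly, was at 1263 and 1327 TPM in A and 1013 and 917 TPM in D and was not called. The summed TPM of the class I group was 4049 to 4167 in A and 2866 to 3162 in D.

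Interferon-stimulated genes were more often called lower than higher in D before any IFNα was added, but 16 of the 17 lower calls were not found in both treated comparisons. All 53 listed were tested, 4 were called higher and 17 lower (3 and 1 in all 3 comparisons), and the median log2 fold change was -0.52. IFITM2, which stops viruses at the membrane, was at 68.7 and 70.4 TPM in A and 3.15 and 0.882 TPM in D, a log2 fold change of -5.11 ± 0.28 (SE, at an adjusted p of 9.07e-07). Its relative IFITM1 was at 58.5 and 67.9 TPM in A and 6.15 and 2.13 TPM in D. OAS2, which makes the messenger that activates RNase L, was at 26.2 and 27.1 TPM in A and 8.21 and 6.69 TPM in D. BST2, tetherin, which holds virus particles at the cell surface, went the other way at 56.1 and 53.6 TPM in A and 213 and 193 TPM in D, as did LY6E, a membrane protein, at 95.3 and 105 TPM in A and 326 and 303 TPM in D. TRIM22, an antiviral ligase, was higher in D at 13.9 and 15.7 TPM in A and 61.3 and 53.1 TPM in D and was called in E against B, but not in F against C. IFI44L, a gene of the same response, was at 4.63 and 3.09 TPM in A and 0.157 and 0.855 TPM in D. IFITM1, OAS2 and IFI44L were called lower in D without treatment and were not called at either dose. The change of the difference was itself called for OAS2 and IFI44L and not for IFITM1. EIF2AK2, the kinase PKR, was at 86.8 and 92.7 TPM in A and 79.02 and 144 TPM in D, and its groups overlapped.

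Cytokines and chemokines held more genes lower in D than any other of the 37 lists. Of 49 genes, 43 were tested, 3 were called higher and 23 lower (1 and 15 in all 3 comparisons), and 11 passed the filter through 1 group only. The median log2 fold change was -1.38. CCL2, which draws monocytes, lies on chromosome 17 (34255218 to 34257203) and was at 1837 and 1898 TPM in A, among the 5 most abundant genes called lower. In D it was at 0 and 0.138 TPM, with 0 counts in D1 and 2 in D2, and its counts were 13558-fold (95% exact interval 3753 to 111958) lower. CX3CL1, fractalkine, was at 7.69 and 16.2 TPM in A and 0 in D. CCL20, which draws cells with the receptor CCR6, was at 13.6 and 9.27 TPM in A and 0.465 and 0 TPM in D. IL18, a cytokine of the inflammasome, was 1 of the 3 exceptions, at 24.4 and 16.4 TPM in A and 73.02 and 68.2 TPM in D. It was called higher also in E against B, not in F against C. The only gene of the list called higher in all 3 comparisons was a chemokine. NFKBIA, the inhibitor that NF-κB switches on, was not called at 188 and 198 TPM in A and 136 and 96.1 TPM in D. It passed the 2-fold threshold without library D1, with a log2 fold change of -1.07. The summed TPM of the 17 chemokines was 2527 to 2561 in A and 166 to 192 in D.

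Of 17 ligands of immune checkpoints, 14 were tested, 4 were called higher and 3 lower (3 and 0 in all 3 comparisons). LGALS1, galectin 1, was at 51.9 and 59.3 TPM in A and 536 and 611 TPM in D, a log2 fold change of 3.23 ± 0.17 (SE, at an adjusted p of 7.90e-07). CD47, the signal that stops macrophages from engulfing a cell, was at 154 and 131 TPM in A and 28.6 and 42.5 TPM in D. It was called lower in D and in E against B, and was not called in F against C. IDO1, which breaks down tryptophan, was at 1.697 and 0.947 TPM in A and 0 in D, and was not called in the treated comparisons. CD276 was not called at 52.4 and 66.4 TPM in A and 42.5 and 49.1 TPM in D.

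Genes of the body plan differed by cluster. HOX genes lie in 4 clusters and are switched on in a pattern that follows the place of a cell along the body axis. Of 39 HOX genes, 33 were tested, 17 were called higher and 5 lower (11 and 5 in all 3 comparisons). All 5 tested genes of the HOXD cluster were lower in D, in all 3 comparisons. HOXD10 was at 37.4 and 35.5 TPM in A and 0.444 and 1.84 TPM in D. HOXD11 was at 22.2 and 18.2 TPM in A and 1.22 and 1.23 TPM in D. HOXD13 was at 1.22 and 0.756 TPM in A and 0 in D. Of the 9 tested genes of the HOXC cluster, 8 were called higher in D and 4 of them also in both treated comparisons, HOXC12 among them, at 0 in A and at 3.397 and 3.96 TPM in D. Of 11 HOXA genes 5 were higher in all 3 comparisons, among them HOXA9 at 4.04 and 3.83 TPM in A and 55.6 and 49.9 TPM in D. Of 8 HOXB genes 4 were called higher without treatment and 2 in all 3 comparisons. No gene of the HOXA, HOXB or HOXC clusters was called lower. The noncoding RNAs of 2 of these clusters were also higher in D, HOTAIR of the HOXC cluster at 0.432 and 0.917 TPM in A and 6.63 and 6.47 TPM in D and HOXA11-AS at 0.157 and 0.548 TPM in A and 8.596 and 8.199 TPM in D.

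In the TGF-β and BMP pathway, in which secreted ligands act through receptor kinases and SMAD factors, D was higher for many genes. Of 44 genes, 40 were tested, 15 were called higher and 5 lower (11 and 3 in all 3 comparisons), and the median log2 fold change was 0.75. Besides INHBA, TGFBR2 and SMAD4, the latent TGF-β binding proteins were higher in D, LTBP3 at 29.5 and 26.3 TPM in A and 213 and 214 TPM in D and LTBP2 at 5.27 and 4.46 TPM in A and 43.01 and 43.5 TPM in D. FST, follistatin, which traps activin, was lower in D at 40.5 and 62.6 TPM in A and 10.99 and 8.94 TPM in D. BMP4, a ligand of the same family, was at 1.81 and 2.37 TPM in A and 0.487 and 0.551 TPM in D. TGFBI, a matrix protein named for its induction by TGF-β, was not called, at 343 and 418 TPM in A and 400.3 and 407 TPM in D.

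Of 45 genes of the WNT pathway, 35 were tested, 8 were called higher and 6 lower (5 and 5 in all 3 comparisons), and 10 passed through 1 group. The ligand WNT9A was at 1.71 and 1.75 TPM in A and 11.7 and 12.4 TPM in D, and SFRP1, a secreted inhibitor, at 0.0563 and 0.0403 TPM in A and 4.17 and 3.51 TPM in D. RNF43, which removes WNT receptors from the membrane, was at 16.8 and 17.8 TPM in A and 1.62 and 0.252 TPM in D. The coreceptor LRP5 was not called at 56.98 and 63.7 TPM in A and 83.6 and 88.9 TPM in D. Of 31 NOTCH genes, 27 were tested, 4 were called higher and 5 lower (4 and 3 in all 3 comparisons). The ligand DLL1 was at 18.6 and 21.3 TPM in A and 0.129 and 0.204 TPM in D, and NRARP, a feedback target, at 16.01 and 14.9 TPM in A and 1.91 and 0.824 TPM in D. Both were lower in D, whereas MAML3, a coactivator, was higher at 0.514 and 0.395 TPM in A and 4.38 and 4.15 TPM in D and the ligand JAG1 was not called at 55.3 and 47.2 TPM in A and 80.6 and 80.1 TPM in D.

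All 32 genes of sterol and fatty acid synthesis were tested, 11 were called higher and 0 lower (7 and 0 in all 3 comparisons), and the median log2 fold change was 0.62. HMGCS1, which makes the precursor of the sterol pathway, was at 51.6 and 48.6 TPM in A and 246 and 212 TPM in D, a log2 fold change of 1.71 ± 0.12 (SE, at an adjusted p of 4.86e-06). MSMO1, a later enzyme of that pathway, was at 27.04 and 21.9 TPM in A and 108 and 103 TPM in D. SCD, which puts the double bond into fatty acids, was at 147 and 129 TPM in A and 583 and 600.1 TPM in D. FASN, fatty acid synthase, was the most abundant member not called, at 278 and 296 TPM in A and 232 and 299.6 TPM in D, and its groups overlapped. The letters CACCCCAC, a sterol element of such promoters, were found in 1 of 25 promoters of this list and in 2.37% of all.

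Of 41 genes of retinoid and foreign compound metabolism, 37 were tested, 14 were called higher and 6 lower (9 and 4 in all 3 comparisons), and 11 passed through 1 group. STRA6, the receptor that takes up retinol, was at 1.01 and 0.948 TPM in A and 50.1 and 49.6 TPM in D, a log2 fold change of 5.34 ± 0.50 (SE, at an adjusted p of 2.40e-05). UGT1A6, which couples compounds to glucuronic acid, was at 4.24 and 2.76 TPM in A and 126 and 135 TPM in D. The UGT1A genes share their last exons, so the split of counts between them is uncertain, although together they were high in D and low in A. The glutathione transferases GSTM1 (5.81 and 8.09 TPM) and GSTM3 (2.87 and 5.42 TPM) were read in A and were at 0 in D. GSTP1, the most abundant of them, was not called at 832 and 989 TPM in A and 608 and 715 TPM in D. Of 34 targets of NRF2, the factor of the response to oxidants, 33 were tested, 9 were called higher and 2 lower (5 and 2 in all 3 comparisons). AKR1C2 was at 0.913 and 1.76 TPM in A and 29.5 and 30.7 TPM in D, and ABCC3, an efflux pump, at 43.6 and 38.5 TPM in A and 208 and 187 TPM in D. FTH1, the ferritin heavy chain, was not called, at 1980.02 and 1303 TPM in A and 1587 and 1544 TPM in D.

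Of 36 hypoxia and glycolysis genes 34 were tested, 2 were called higher, or 0 without library A1, and 8 lower. In all 3 comparisons 2 were higher and 3 lower. EGLN3, an oxygen sensor that hypoxia switches on, was at 17.3 and 15.5 TPM in A and 0.77 and 0.788 TPM in D. BNIP3, which marks mitochondria for removal, was at 37.3 and 32.4 TPM in A and 12.5 and 8.63 TPM in D, and SLC16A1, a lactate carrier, at 50.3 and 75.5 TPM in A and 11.1 and 10.8 TPM in D. The glycolytic enzymes GAPDH (2693 and 3175 TPM in A, 2062 and 2447 TPM in D) and PKM (3533 and 3065 TPM in A, 2296 and 1974 TPM in D) were lower in D by less than 2-fold and were not called.

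Metallothioneins, which bind zinc and copper, were among the genes that set A apart. MT1E was at 622 and 663 TPM in A and had no count in D, at least 1448-fold lower, the most negative log2 fold change among the named genes. MT2A was at 1279 and 1452 TPM in A and 108 and 116 TPM in D, a log2 fold change of -3.74 ± 0.21 (SE, at an adjusted p of 9.66e-07). Of 5 MT1 and MT2 genes tested, 4 were called lower and 0 higher. This group was put together after the values of MT1E and MT2A were seen.

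Among the most abundant genes, HSPB1, a small heat shock protein, was at 316 and 285 TPM in A and 1620.3 and 1451 TPM in D and was higher in D, whereas HSPA8, the constitutive chaperone of the HSP70 family, was at 2854 and 2703 TPM in A and 1012 and 1269 TPM in D and was lower. RPPH1, the RNA of RNase P, was at 25388 and 25778 TPM in A and 10432 and 11842 TPM in D. MTCO1P12 (627 and 588 TPM in A, 3365 and 3247 TPM in D) and MTND1P23 (158 and 154 TPM in A, 942 and 987 TPM in D) are nuclear copies of mitochondrial genes. Reads of such copies and of the mitochondrial genes can be mistaken for each other, and MT-ND1, the gene that MTND1P23 copies, was lower in D at 5802 and 5683 TPM in A and 2346 and 2254 TPM in D. Of the 13 mitochondrially encoded genes, 0 were called higher and 3 lower (0 and 3 in all 3 comparisons), and their summed TPM was 82058 to 84386 in A and 78453 to 86576 in D.

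Few genes of the ribosome were called. All 78 were tested, 5 were called higher and 2 lower (3 and 2 in all 3 comparisons). Of the 4 with the largest log2 fold change, RPSA (480.1 and 487 TPM in A, 2113 and 2129 TPM in D), RPL15 (182 and 188 TPM in A, 605 and 524 TPM in D), RPL14 (73.4 and 73.98 TPM in A, 278 and 262 TPM in D) and RPL29, all lie on chromosome 3 and were higher in D. RPL29 was at 124 and 209 TPM in A and 642 and 275 TPM in D and was not called in the treated comparisons, and without library D1 its log2 fold change was 0.62 and the call was lost. RPL35A, on the same chromosome, was lower at 434 and 439.7 TPM in A and 189.7 and 198 TPM in D. Counts of ribosomal protein genes can be shared with their many processed copies. Of 31 proteasome genes, all tested, 0 were called higher and 6 lower (0 and 1 in all 3 comparisons), and the median log2 fold change was -0.60. PSMB7, a core subunit, was at 594 and 588 TPM in A and 201 and 219 TPM in D. The summed TPM of the proteasome list was 6229.7 to 6374 in A and 4224 to 4335 in D.

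Surface proteins studied as targets of antibodies also differed. Of 31 such genes and mucins, 27 were tested, 9 were called higher and 3 lower (9 and 3 in all 3 comparisons). MSLN, mesothelin, was at 0 in A and at 13.1 and 14.2 TPM in D, at least 78.95-fold higher. MUC4, a membrane mucin, was at 0.154 and 0.266 TPM in A and 36.8 and 32.2 TPM in D, and MUC15 was at 0 in A and at 7.39 and 6.597 TPM in D. ENG, endoglin, a coreceptor of TGF-β, was at 0.0841 and 0.419 TPM in A and 16.4 and 14.96 TPM in D. MUC16, the mucin known as CA125, was lower in D at 16.1 and 22.6 TPM in A and 4.98 and 4.78 TPM in D, and LY6D, a marker of squamous cells, at 24.7 and 38.2 TPM in A and 3.91 and 5.41 TPM in D. Of 36 genes of caspases, death receptors and their regulators, 35 were tested, 3 were called higher and 6 lower (3 and 4 in all 3 comparisons). RIPK3, the kinase that drives necroptosis, was at 0 in A and at 8.36 and 8.78 TPM in D, at least 30.8-fold higher. CASP1, the caspase of the inflammasome, was at 44.1 and 47.3 TPM in A and 14.8 and 13.5 TPM in D and was lower in D.

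Cancer-testis genes, which adult tissue outside the germ line mostly keeps silent, were called higher in D and not lower. Of 53 cancer-testis antigens 18 were tested, 12 were called higher and 0 lower (12 and 0 in all 3 comparisons), or 1 lower without library A1 or D2, and 24 were at 0 in all 4 control libraries. Of the 18 tested, 11 passed the filter through 1 group. LIN28B, an RNA-binding protein of early development, was at 0 in A and at 2.57 and 2.67 TPM in D. MAGEA11 was at 0 in A and at 9.52 and 9.04 TPM in D. MAGEA4 was abundant in both sets at 191 and 195 TPM in A and 114 and 138 TPM in D and was not called. The summed TPM of the list was similar, 321 to 323 in A and 308 to 377 in D. Near-identical members such as MAGEA2B and MAGEA6 share reads, and their values are uncertain.

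Of 21 imprinted genes, which are read from 1 parental copy, 10 were tested, 4 were called higher and 2 lower (3 and 2 in all 3 comparisons). H19, a noncoding RNA read from the maternal copy, was at 1.105 and 1.04 TPM in A and 166 and 153 TPM in D, a log2 fold change of 7.05 ± 0.41 (SE, at an adjusted p of 1.19e-06). SNRPN was at 0.921 and 1.11 TPM in A and 43.003 and 48.7 TPM in D, and KCNQ1OT1 at 2.73 and 2.73 TPM in A and 9.61 and 8.57 TPM in D. GRB10, an adaptor of growth factor receptors, was lower in D at 15.8 and 14.6 TPM in A and 0.0425 and 0.537 TPM in D. Of 37 well-known long noncoding RNAs, 35 were tested, 9 were called higher and 7 lower (7 and 4 in all 3 comparisons). TINCR, a noncoding RNA of epidermal differentiation, was at 0.138 and 0.362 TPM in A and 9.61 and 9.91 TPM in D. NEAT1, which builds paraspeckles, was at 1149 and 951 TPM in A and 389 and 304 TPM in D, and AFAP1-AS1 was at 7.79 and 6.59 TPM in A and 0 in D, at least 158-fold lower. MALAT1 (2702 and 2181.6 TPM in A, 1919.99 and 1479.5 TPM in D) and the squamous MIR205HG (431 and 389.6 TPM in A, 407 and 343 TPM in D) were not called.

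Markers of cell types other than carcinoma cells were checked in 4 lists. Of 10 leukocyte markers 6 were at 0 in all controls, 3 were tested and 0 were called in either direction (1 lower without library A1 or D1), and the list summed to 12.4 to 15.0 TPM in A and 8.62 to 10.9 TPM in D. Of 8 fibroblast markers 4 were tested. FAP, the fibroblast activation protein, was at 0.755 and 0.627 TPM in A and 36.1 and 35.3 TPM in D, whereas the collagens COL1A1 (6.45 and 12.7 TPM in A, 7.57 and 8.102 TPM in D) and COL1A2 (1.36 and 1.11 TPM in A, 1.73 and 0.765 TPM in D) were not called. Of 6 endothelial markers 1 was tested and called lower, CDH5, at 16.5 and 15.2 TPM in A and 0.119 and 0.114 TPM in D, and 2 were at 0 in all controls. Of 9 melanocyte and neural markers 3 were tested and 1, MITF, was called higher at 2.504 and 2.46 TPM in A and 13.1 and 10.99 TPM in D. That list summed to 31.4 to 33.8 TPM in A and 43.8 to 49.8 TPM in D, so members other than MITF were read in both sets, and 3 were at 0 in all controls. Whether other cells were present in either culture was not tested beyond these levels.

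Some genes were read in one set and were at or near 0 in the other. A gene was counted when both controls of one set held at least 10 TPM and both controls of the other held at most 3 counts. There were 91 such genes read in D and 61 read in A. Protein coding genes made up 30 of the 91 and 37 of the 61. Some of the others are very short RNAs whose TPM rests on few counts. MIR6510, for example, had 2 and 1 counts in A and 10 and 8 in D, a ratio of 5.48 (95% exact interval 1.6 to 29). Leaving out library A2, so that A1 alone had to be silent, gave 146 genes read in D. Of the 91 and 61 genes, 39 and 41 had no count in either control of the silent set. In the treated libraries of the silent set, 45 of the 91 and 47 of the 61 genes also stayed at or under 3 counts in every library. The noncoding RNA LINC01021, on chromosome 5 (27472292 to 27496401), led the genes read in D with 139 and 97.5 TPM and at least 390.02-fold. PRSS3, a trypsin whose reads may be shared with other trypsin genes, was at 0.223 and 0.173 TPM in A and 80.5 and 76.7 TPM in D. LINC00665 and LINC00662 of chromosome 19 were at 26.3 and 25.6 and at 23.9 and 24.2 TPM in D. NPFFR2, a neuropeptide receptor, was at 11.3 and 11.9 TPM in D and at 0 in A.

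Several of the silent genes were neighbours. A run was at least 3 neighbouring tested genes at or under 3 counts in both controls of one set and at 1 TPM or more in those of the other. The runs and the ZNF genes described here were picked out after their values were seen. On chromosome 8 (25419260 to 25507920) GNRH1, KCTD9 and CDCA2 lie side by side, and all 3 were at or under 3 counts in every control of D. KCTD9, an adaptor of a ubiquitin ligase, was at 65.6 and 68.04 TPM in A, and CDCA2, a regulator of a mitotic phosphatase, at 48.4 and 53.3 TPM. Both were at 0 in D1 and D2, at least 435-fold and at least 464-fold lower. DOCK5, just beside this run, was at 59.8 and 63.9 TPM in A and 46.2 and 39.1 TPM in D. On chromosome 17 (35350305 to 35537861) lies a second run with SLFN11, SLFN12, SLFN13 and SLFN12L. SLFN11, a Schlafen protein that blocks replication after DNA damage, was at 40.4 and 35.7 TPM in A and 0 in D, and SLFN13 at 15.4 and 10.8 TPM in A and 0 in D. Their neighbour SLFN5 was read in both sets at 28.2 and 24.8 TPM in A and 20.7 and 17.04 TPM in D and was not called.

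In set A the longest run of silent genes was on chromosome 19. Between 19865886 and 20661596, 11 neighbouring genes were silent in A, 8 of them ZNF genes, which encode zinc finger proteins, many of which bind repeats and repress them. ZNF626 was at 0 in A and at 16.9 and 11.2 TPM in D, at least 92.3-fold higher. ZNF468 (at 0 in A, 15.6 and 15.5 TPM in D), ZNF66 (15.1 and 16.1 TPM in D) and ZNF738 (17.5 and 15.03 TPM in D) gave the same picture. Of 216 ZNF genes of chromosome 19 tested, 99 were called higher and 6 lower, and 58 were at the floor in A alone against 1 in D alone. Of 240 ZNF genes on the other autosomes, 42 were called higher and 16 lower, with 7 at the floor in A alone and 7 in D alone. The exception with the largest value was ZNF483 of chromosome 9, at 32.97 and 30.6 TPM in A and 0 in D. In the 4 blocks of chromosome 19 in which the difference was largest, 73 of 87 ZNF genes and 40 of 113 other genes were called higher. These blocks were picked for their high medians, so high shares in them follow from the choice. In them 46 of the ZNF genes and 29 of the other genes were at the floor in A alone and could pass the filter only through D. A further run in A was HBE1, embryonic ε-globin, with olfactory receptor genes on chromosome 11, HBE1 being at 24.7 and 19.5 TPM in D and 0.281 and 0 TPM in A. The HBE1 interval in the files spans several olfactory receptor genes, so these reads cannot be given to 1 gene.

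Neighbouring genes often differed in the same direction over longer distances as well. Tested genes of chromosomes 1 to 22 were taken in order in 378 blocks of 50. The median log2 fold change of a block was within 0.25 of 0 in 204 blocks, was at least 1 in 15 and at most -1 in 5. Chromosome 3 held both directions. Its first 10 blocks (3126916 to 73069199) had a median of 1.08, with 227 of 500 genes called higher and 22 lower. Its last 6 full blocks (142596387 to 197573323) had a median of -0.73, with 24 of 300 genes called higher and 90 lower. Over the whole of chromosome 3, RPSA, RPL15, RPL14, RPL29, TGFBR2 and ITGB5 were among the genes higher in D. TP63, SOX2 and RPL35A were among those lower. These named genes need not lie in either stretch. Both stretches were chosen after the block values were seen. In the treated libraries the medians of the first stretch were 1.12 at the low and 1.15 at the high dose, and those of the last stretch -0.75 and -0.78.

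**Figure D5:**
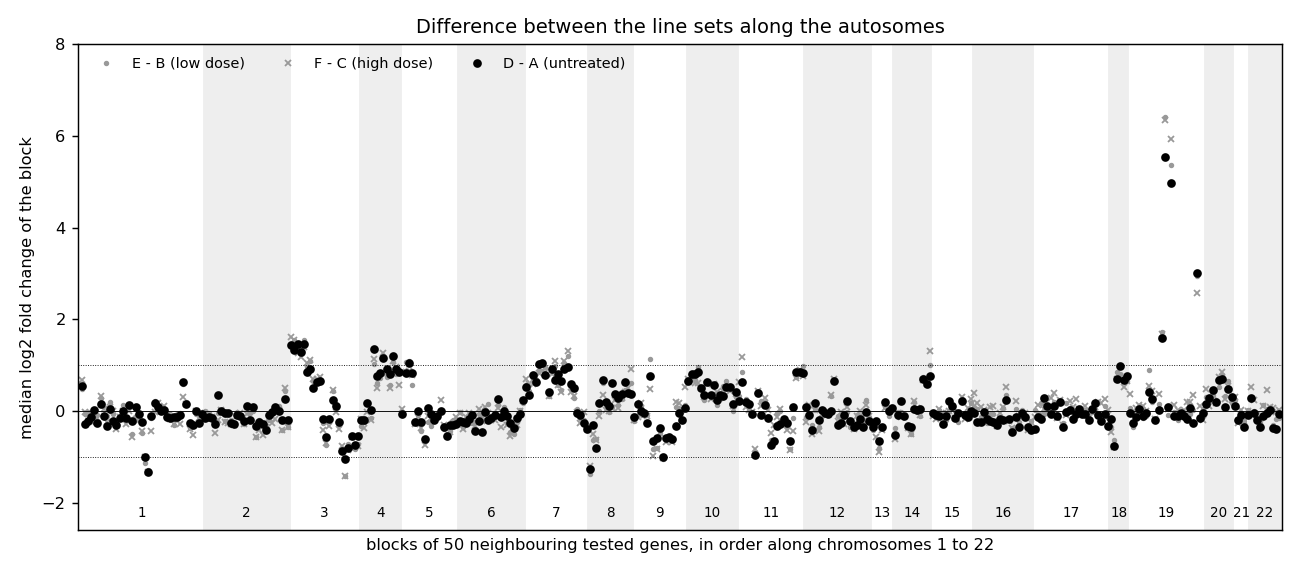
Median log2 fold change of D against A (black), E against B (grey dots) and F against C (grey crosses) in 378 blocks of 50 neighbouring tested genes, in order along chromosomes 1 to 22, with alternate chromosomes shaded and dotted lines at 1 and -1. Chromosome 3 runs from a raised first part (median 1.08) to a lowered last part (median -0.73), and the highest block, at 5.54, lies on chromosome 19.

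Whole chromosomes stood apart less. The median log2 fold change was 0.59 on chromosome 4, 0.58 on chromosome 7, 0.51 on chromosome 10 and 0.48 on chromosome 18, and the lowest was -0.27 on chromosome 9. On chromosome 7, which carries EGFR, 266 of 1045 genes were called higher and 80 lower, while EGFR was not called. DNA copy number was not measured here, and its part in these differences was not tested.

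Of the 7 types of gene compared, intergenic noncoding RNAs were called most often, and other types were not compared. Of 952 tested, 246 were called higher and 141 lower, or 40.7%, against 25.6% of 13494 protein coding genes and 24.97% of antisense RNAs. Their median abundance was 1.98 TPM against 19.7 TPM for protein coding genes, and a low gene could pass the filter through 1 set only. Of 115 small nucleolar RNAs 12.2% were called. Of 1703 genes assembled from the reads by the authors, 28.1% were called.

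Promoters of called genes were less often rich in CpG sites. A RefSeq promoter, from 250 bases before to 50 bases after the start, was matched by symbol to 10913 tested genes. It was counted as CpG rich when the ratio of observed to expected CpG was at least 0.6 and its GC share at least 0.5. This held for 81.4% of 8153 genes that were not called, 65.7% of 1575 called higher and 66.8% of 1185 called lower. Among the genes silent in one set it held for 29.2% of 24 silent in A and 48.1% of 27 silent in D. DNA methylation was not measured, and these shares are a description of the promoters only.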

How the data were processed

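LncRNA sequencing gave 12 libraries of 6 groups with 2 replicates each. Per the submitters' processing notes, the authors used Trimmomatic 0.36, HISAT2 2.1.0 and StringTie 1.3.3b with GRCh38.p10, and the roles and settings are not given in the sources used here. The authors deposited 1 gene table with an estimated count and a TPM value (abundance scaled for transcript length and library size) for each library and 60099 genes, 1925 of them assembled from the reads. How the counts were made from the assembly, and whether strand was used, is not stated, so overlapping and antisense genes are uncertain. Deposited FPKM columns and a table of transcripts were not used.

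The estimated counts are whole numbers as deposited and were used so. Genes kept by edgeR's filterByExpr (19944) were normalized with TMM and fitted with edgeR 4.0.16 (glmQLFit, glmQLFTest, R 4.3.3) over all 12 libraries, without covariates. Adjusted p-values are Benjamini-Hochberg values over all tested genes, and genes were called at 2-fold or more and an adjusted p of at most 0.05. The 2-fold limit is that of the study, and its unadjusted p limit of 0.05, with edgeR's p-values, was tried as an alternative beside DESeq2 1.42.0, limma 3.58.1, other normalizations, no filter, only the 2 groups, a replicate block and leaving out each library. On simulated counts for the D against A comparison (19944 genes, 50 changed at each fold), edgeR called 46 genes changed 8-fold, 39 changed 4-fold, 9 changed 2-fold and 1 changed 1.5-fold, and 2 of its 97 calls were false. DESeq2 made 115 calls, 14 of them false. The simulation first removed the difference between D and A and then changed only genes with enough counts, in random directions. Far fewer genes differed in it than in the data, where 26.6% were called. Its shares of found and false calls therefore may not hold for the data.

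Genes were named by rule: the 12 highest and 12 lowest log2 fold changes and the 5 most abundant called genes per direction, each with at least 10 TPM and called at both doses, then up to 4 called genes per direction and 2 abundant uncalled genes of each list, and genes silent in one set. A few genes and 1 list that the rule gave are not reported here. Genes outside the rule are marked as picked after their values were seen. The members and lists were chosen with earlier results of these data known. Positions are those of the deposited table. Promoters came from RefSeq on GRCh38.p14. A fold against a group at 0 was taken against 3 counts per library. Tables and plots used Python 3.11.15, pandas 2.3.3, numpy 2.4.6, scipy 1.17.1 and matplotlib 3.10.9.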

Additional observations from a re-analysis of the deposited data

Results flagged for a closer look

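The difference between the sets was tested again at each dose, as the change of D against A when E was compared with B or F with C (edgeR's quasi-likelihood test, Benjamini-Hochberg adjustment). Of the genes described above, 13 were picked out because this change was at least 2-fold with an adjusted p of at most 0.05. A positive change means that the log2 ratio of set D-F over set A-C was higher with IFNα than without. Each of the 3 comparisons rests on 2 libraries a group, and 1.06% of all tested genes changed in this way.

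Interferon-stimulated genes made up part of these. For OAS2 the untreated difference was changed by 2.49 ± 0.20 (SE, adjusted p = 9.11e-04) at the low dose and by 2.18 ± 0.19 (SE, adjusted p = 0.00232) at the high dose, and the gene was at 395 and 511 TPM in C and 335 and 325 TPM in F. For IFI44L the change was 2.89 ± 0.27 (SE, adjusted p = 0.00261) and 2.83 ± 0.27 (SE, adjusted p = 0.00241), with 142 and 153 TPM in C and 194 and 177 TPM in F. IFITM2 changed by 2.53 ± 0.36 (SE, adjusted p = 0.0208) and 2.59 ± 0.36 (SE, adjusted p = 0.011), and at 26.9 and 32.2 TPM in F it was still below the 119 and 98.9 TPM in C. TRIM22, higher in D before treatment, changed the other way by -1.09 ± 0.17 (SE, adjusted p = 0.035) and -1.17 ± 0.17 (SE, adjusted p = 0.0136), with 174 and 195 TPM in C and 413 and 383 TPM in F.

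HLA-B, whose untreated groups overlapped, changed by 1.32 ± 0.13 (SE, adjusted p = 0.00306) at the low dose and 1.75 ± 0.13 (SE, adjusted p = 0.00111) at the high dose. It was at 609 and 665 TPM in B and 1399 and 1463 TPM in E, and at 547 and 388 TPM in C and 1782 and 1871 TPM in F. Its values carry the doubt given above for single HLA genes. CD74, SLFN11 and IDO1 had no count in D, so their fitted changes depend on the prior count and are no measure of size. The change at the high dose was 6.14 ± 1.19 (SE, adjusted p = 0.0447) for CD74, 5.88 ± 1.17 (SE, adjusted p = 0.0476) for SLFN11 and 6.91 ± 1.02 (SE, adjusted p = 0.0193) for IDO1. CD74 was at 1.23 and 1.03 TPM in F against 271 and 321 in C, SLFN11 at 0.726 and 0.111 in F against 30.3 and 40.9 in C, and IDO1 at 5.14 and 4.02 in F against 4.94 and 4.77 in C.

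The other 5 genes are not known mainly as interferon-stimulated genes. GJB2 changed by 1.33 ± 0.15 (SE, adjusted p = 0.00767) at the low dose and 1.38 ± 0.15 (SE, adjusted p = 0.00439) at the high dose and was at 47.3 and 53.2 TPM in C and 24.8 and 26.4 TPM in F. The change at the high dose was -1.53 ± 0.32 (SE, adjusted p = 0.0493) for NRG1, which was at 180.5 and 221 TPM in C and 1.68 and 0.856 TPM in F. For TIMP3 it was -1.28 ± 0.13 (SE, adjusted p = 0.00287), with 5.49 and 5.999 TPM in C and 159.9 and 146 TPM in F. For TP63 it was -1.03 ± 0.15 (SE, adjusted p = 0.0136), with 393 and 452 TPM in C and 126 and 119.7 TPM in F. For WNT9A it was 1.59 ± 0.29 (SE, adjusted p = 0.0341), with 0.828 and 1.51 TPM in C and 24.4 and 27.97 TPM in F. All 5 were called in F against C in the same direction as in D against A.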

How the results depend on the processing

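The number of genes called between D and A was 5310 and ranged from 5201 with DESeq2 to 5810 with 2-fold and an unadjusted p of at most 0.05 when the normalization, the filter, the tool, the samples in the fit, the threshold or the unit was changed, and from 4675 to 4831 when 1 library was left out. No gene called between D and A by edgeR and under an alternative changed its direction. With limma on log2(TPM + 0.1) more of the calls were higher, 3521 against 1879 lower in D against A and 4322 against 1863 in F against C, where edgeR gave 3344 and 2320. Counts of genes silent in one set followed the limits chosen. Those read in D numbered 39 with a floor of 0 counts, 237 with 5 TPM and 16 with 20 TPM, and from 110 to 146 without 1 library. Those read in A numbered 147 with 5 TPM and 19 with 20 TPM. With blocks of 25 genes 6.29% of blocks had a median of at least 1, against 3.97% with 50, and with blocks of 100 genes 0.546% had a median of at most -1, against 1.32%. The cause of the shift with limma was not tested.

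In the labels, replicates of different groups have only a number in common, and how they were made is not stated. A link between replicates was looked at for D and A only. The deviations of D and A from their group means had a correlation of -0.000189 over 13033 genes, and with the replicate number as a block 5225 genes were called. Of 249 called genes that the naming rule gave, 25 lost the call when 1 library was left out, and GNRH1, which the rule did not give, lost it without A2, D1 or D2. The depth limits the silent genes, for which 3 counts was chosen as the floor, and 2 libraries a group limit small differences.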
